A study of Mus musculus with 3 samples.

Results

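The transcripts of 10 genes were followed across the immune cells of mouse melanoma grafts. 9 encode surface receptors by which macrophages bind modified lipoproteins, glycoproteins, folate or dying cells: Mrc1, Cd163, Msr1, Cd36, Stab1, Folr2, Lyve1, Axl and Mertk. The other, Selenop, encodes the secreted selenium carrier selenoprotein P. They were chosen by name as scavenger receptors and genes of tissue-resident macrophages, and all 10 symbols were found once among the 55401 genes listed in the count tables.

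Scavenger receptors and the mannose receptor take up altered self molecules and microbial sugars and carry them to lysosomes. Axl and Mertk are receptor tyrosine kinases of the TAM family, which bind exposed phosphatidylserine through the bridging proteins Gas6 and protein S and drive the engulfment of dying cells. Long-lived macrophages of healthy tissues are commonly recognised by Mrc1, Cd163, Folr2, Lyve1 and Selenop, whereas cells newly derived from blood monocytes carry little of these.

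YUMM1.7 is a mouse melanoma line, and 500000 of its cells were placed under the skin of mice aged 4, 12 or 20 months. Each age had 7 mice, tumours were taken after 18 days, and live CD45.2-positive cells were sorted, so cells without this leukocyte protein were selected against. One library was made per age with a PIP-seq 3′ kit, which counts transcripts near their 3′ ends. The labels give no strain, sex or treatment for the mice and do not say whether each mouse's cells were pooled, and with 1 library per age no difference has a replicate check and none was tested. Intervals in brackets are 95% intervals that cover counting error only.

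In order of age, 14393, 14653 and 14684 cells were deposited, carrying 110371225, 127850782 and 119873564 counts, and the median cell had 6789, 7411 and 6936 counts. Of these, 41105 cells were kept, and 5 to 7 cell barcodes of each library also occurred in another. Cells were clustered without the 10 genes and without the gene lists described later, and clusters were named from marker genes. C1q macrophage-like cells (2695, 2787 and 3411 cells) were separated from monocyte-like cells (2609, 1472 and 1704 cells) by a summed C1qa, C1qb and C1qc level at least 5 times that of lymphocyte-like cells. There were 708, 614 and 728 dendritic cell-like cells and 7369, 8781 and 7784 lymphocyte-like cells. A level is given in CPM: the counts of a gene were summed over the cells of a class in a library and scaled so that every such class sum has the same total. CPM is not compared between genes, since 3′ counting recovers genes unequally. Although the labels give melanoma as the cell type, 6 melanoma markers summed to 4.16 to 4.85 CPM in C1q macrophage-like cells, where Ptprc, the gene of CD45, stood at 562, 462 and 483 CPM.

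At 20 months C1q macrophage-like cells carried more Mrc1, Selenop and Mertk than at 4 months, by 1.26, 0.99 and 0.73 on the log2 scale, while Cd36 was lower and Msr1 slightly lower. Axl hardly differed between ages. Cd163 and Lyve1, both widely used to recognise resident macrophages, were almost absent from these cells at every age. Mrc1, Folr2, Axl, Mertk and Selenop had their highest level of the 4 classes in C1q macrophage-like cells in each of the 3 libraries. The share of all genes with that order was not computed. Msr1 and Stab1 were highest in monocyte-like cells at each age, whereas Cd36 was highest in monocyte-like cells at 4 months and in dendritic cell-like cells at 20 months, with overlapping intervals of these 2 classes at 12 months.

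**Figure D1:**
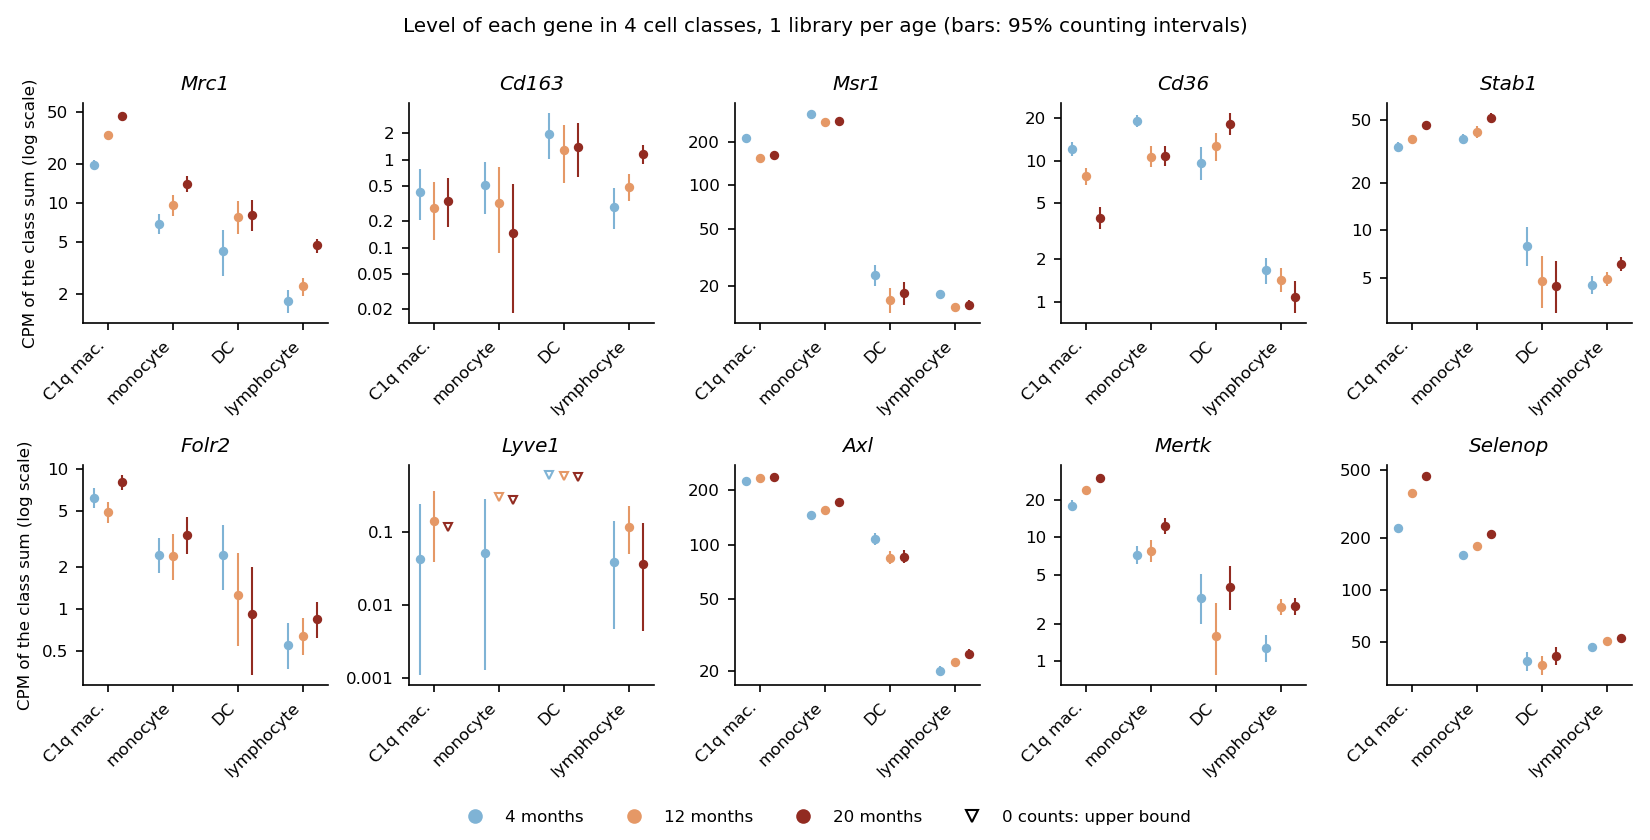
Each panel plots the level of 1 gene (vertical axis, CPM of the class sum, log scale) in C1q macrophage-like (C1q mac.), monocyte-like, dendritic cell-like (DC) and lymphocyte-like cells; colours are ages, points single libraries, bars 95% counting intervals, and open triangles the upper bound where no count was found. Mrc1 and Selenop climb with age in C1q macrophage-like cells, Cd36 descends there and ascends in dendritic cell-like cells, and Cd163 and Lyve1 stay near or below 2 CPM.

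Msr1 encodes scavenger receptor A, which binds modified low-density lipoprotein and bacterial lipids. Its gene lies on chromosome 8 from 39581685 to 39642673 (GRCm38, minus strand). Its level was 310.4, 275 and 280.1 CPM in monocyte-like cells at 4, 12 and 20 months and 212, 154 and 162 CPM in C1q macrophage-like cells. Monocyte-like cells were the higher class in every library, with a log2 ratio of macrophage-like to monocyte-like cells of -0.55 (-0.61 to -0.50), -0.83 and -0.79. Lymphocyte-like cells, which should not express it, held 17.7, 14.4 and 14.9 CPM, and dendritic cell-like cells were close to that background at 23.7, 15.9 and 17.9 CPM.

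Stab1, on chromosome 14 from 31139013 to 31168641, encodes stabilin-1, an endocytic receptor of resident macrophages and sinusoidal endothelium. It was measured at 33.7, 37.9 and 46.3 CPM in C1q macrophage-like cells and at 38.0, 42.1 and 51.5 CPM in monocyte-like cells. The log2 ratio of macrophage-like to monocyte-like cells was -0.17, -0.15 and -0.16, and its interval at 12 months included 0. Dendritic cell-like cells had 7.97, 4.78 and 4.44 CPM, beside the lymphocyte-like 4.50, 4.93 and 6.11 CPM. Stab1 overlaps Nt5dc2 on the opposite strand, and whether counting used the strand is not given in the sources used here.

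Cd163, the receptor for haptoglobin-bound haemoglobin, gave 10, 8 and 11 counts in all C1q macrophage-like cells of the 3 libraries, or 0.425, 0.282 and 0.342 CPM. Lymphocyte-like cells had 0.290, 0.487 and 1.15 CPM, and the intervals overlapped at 4 and 12 months. The lymphocyte-like value at 20 months rested on 1 cell, which held 48 of the 64 counts. Among dendritic cell-like cells, Cd163 was concentrated in a sub-cluster led by Cd209a, with 10, 6 and 2 counts (9.14, 9.25 and 3.25 CPM), and in one led by Siglech, a gene of plasmacytoid dendritic cells, with 2, 2 and 4 counts. A difference of Cd163 between ages was not detectable in macrophages at this depth. Lyve1, the hyaluronan receptor of lymphatic vessels and of some perivascular macrophages, gave 1, 4 and 0 counts in C1q macrophage-like cells. A count in 0 of 3411 cells at 20 months leaves an exact upper limit of 0.108% for the share of cells with a count.

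Mrc1, the mannose receptor CD206, binds mannose-rich glycans and collagen fragments and lies on chromosome 2 from 14229392 to 14332057. Its level in C1q macrophage-like cells was 19.5 (17.8 to 21.4), 33.2 (31.1 to 35.3) and 46.8 (44.5 to 49.2) CPM at 4, 12 and 20 months. The 3 libraries stood in the order of age with no overlap of intervals. Monocyte-like cells had 6.88, 9.63 and 14.0 CPM and dendritic cell-like cells 4.23, 7.81 and 8.11 CPM. The lymphocyte-like background also differed with age, at 1.76, 2.28 and 4.70 CPM, and 10 cells held 40.2% of its counts at 20 months. C1q macrophage-like cells stood 11.1, 14.6 and 9.95 times above it. Mrc1 overlaps the microRNA gene Mir511 on the same strand.

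Folr2, on chromosome 7 from 101839988 to 101857194, encodes folate receptor beta. Its level in C1q macrophage-like cells was 6.24, 4.94 and 8.08 CPM, against 2.45, 2.41 and 3.41 CPM in monocyte-like cells and 0.560, 0.644 and 0.847 CPM in lymphocyte-like cells. Few cells carried it, and 10 cells held 44.9%, 38.6% and 23.5% of the macrophage counts. An antisense gene, Gm10602, and a pseudogene overlap it.

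Axl, on chromosome 7 from 25757273 to 25788705, was at 225, 234 and 238 CPM in C1q macrophage-like cells. It was lower in monocyte-like cells, at 146, 156 and 172 CPM, and in dendritic cell-like cells, at 107, 84.9 and 85.7 CPM, and all 3 stood above the lymphocyte-like 20.1, 22.6 and 24.98 CPM. Within dendritic cell-like cells the sub-cluster led by interferon-response genes (Cxcl11, Ifit3) was the highest, at 218, 199 and 178 CPM, and, leaving aside a sub-cluster of 20 cells, the Siglech-led one was the lowest, at 26.9, 16.1 and 10.3 CPM. Mertk, on chromosome 2 from 128698956 to 128802894, was at 18.0 (16.4 to 19.8), 24.0 (22.2 to 25.9) and 29.96 (28.1 to 31.9) CPM in C1q macrophage-like cells. The libraries were again in the order of age with separate intervals. Monocyte-like cells had 7.24, 7.78 and 12.4 CPM, so that the macrophage level was higher by 1.32, 1.62 and 1.28 on the log2 scale. Axl thus stood above background in dendritic cell-like cells, whereas Mertk there was at 3.25, 1.59 and 3.98 CPM beside a lymphocyte-like 1.27, 2.74 and 2.78 CPM. At 4 months Mertk was 2.55 (1.47 to 4.26) times the lymphocyte-like level, but 1 cell held 8 of its 20 counts. At 12 and 20 months it was 0.582 (0.275 to 1.09) and 1.43 (0.908 to 2.18) times that level. The 51, 31 and 46 fibroblast-like cells had more Mertk than macrophages at 4 months, at 75.2 (55.6 to 99.4), 36.4 and 45.6 CPM, and Axl at 196, 134 and 162 CPM.

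Selenop, on chromosome 15 from 3268547 to 3280508, was at 231 (225 to 237), 368 (361 to 375) and 459.5 (452 to 467) CPM in C1q macrophage-like cells. The 3 intervals did not overlap and followed age. Monocyte-like cells were at 159.9, 180.0 and 212 CPM, in the same order but closer together. The excess of C1q macrophage-like over monocyte-like cells was 0.53 (0.47 to 0.59) on the log2 scale at 4 months, 1.03 (0.96 to 1.10) at 12 months and 1.12 (1.06 to 1.17) at 20 months. Dendritic cell-like cells, at 38.7, 36.5 and 41.5 CPM, were below the lymphocyte-like 46.9, 50.4 and 52.7 CPM. The few fibroblast-like cells had 318 (276 to 364), 187 (145 to 238) and 312 (267 to 362) CPM, above the macrophage level at 4 months only. Ccdc152 overlaps Selenop on the other strand.

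For comparisons between ages, a gene was counted as higher or lower when its level differed by at least 1.5-fold from the 4-month library, among genes averaging at least 5 CPM over the 3 libraries of the class. 8 of the 10 genes passed that minimum in C1q macrophage-like cells, the exceptions being Cd163 and Lyve1. At 20 months 3 of the 8 were higher (Mrc1, Selenop and Mertk), beside 2.59% of the 10933 genes measured, and 1 was lower (Cd36), beside 1.55%. At 12 months 2 were higher (Mrc1 and Selenop), beside 3.48%, and 1 was lower (Cd36), beside 1.27%, a call that was lost in 6 of 15 alternatives. The median over all genes was -0.01 on the log2 scale at both ages, against 0.42 for the 8 genes at 20 months and 0.11 at 12 months. The age of the mice and the library cannot be told apart.

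**Figure D2:**
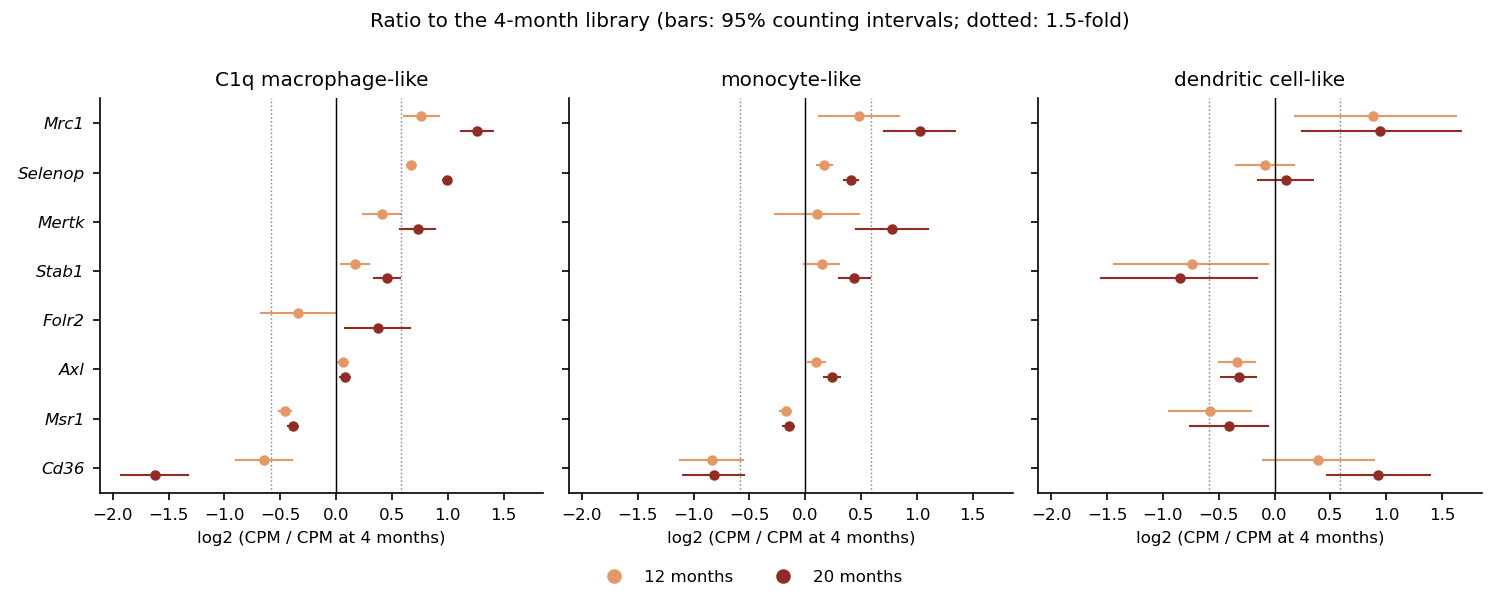
The horizontal axis is the log2 ratio of the level at 12 or 20 months to that at 4 months, for genes averaging at least 5 CPM in each of 3 classes; points are single libraries, bars 95% counting intervals, and dotted lines mark 1.5-fold. In C1q macrophage-like cells Mrc1 lies at 1.26 and Selenop at 0.99 for 20 months while Cd36 lies at -1.62, and Cd36 is on the opposite side in dendritic cell-like cells.

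Mrc1 was higher by 0.76 (0.60 to 0.93) at 12 months and 1.26 (1.11 to 1.41) at 20 months on the log2 scale. The difference was also present between 20 and 12 months, at 0.50 (0.38 to 0.62). Selenop was higher by 0.67 (0.63 to 0.72) and 0.99 (0.95 to 1.04). Mertk was higher by 0.41 (0.23 to 0.59) at 12 months, short of 1.5-fold, and by 0.73 (0.56 to 0.90) at 20 months. Stab1 reached 0.46 (0.33 to 0.58) at 20 months, and Folr2 was lower at 12 months, at -0.34 (-0.68 to 0.01), and higher at 20 months, at 0.37 (0.07 to 0.67). Axl differed by 0.06 (0.01 to 0.11) and 0.08 (0.03 to 0.13), less than any other of the 8. Msr1 was lower by -0.46 (-0.52 to -0.40) and -0.39 (-0.44 to -0.33), also short of 1.5-fold.

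Several other signals differed between the libraries, in these cells or in lymphocyte-like cells. The summed level of 12 C1q macrophage markers in C1q macrophage-like cells was 11336, 12929 and 16482 CPM, that of 17 monocyte markers 13279, 10703 and 9667 CPM, and none of either list was at 0. The 33 lymphocyte markers summed to 2149, 2751 and 2127 CPM in C1q macrophage-like cells, highest at 12 months and not in the order of age. C1qa itself was found in lymphocyte-like cells at 150, 187 and 262 CPM, in the order of age. With the lymphocyte-like level subtracted, Mrc1 was still 1.24 and Selenop 1.15 higher at 20 months on the log2 scale. The part of the other signals in the differences was not tested.

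To set the cells apart more finely, C1q macrophage-like cells were divided into 5 sub-clusters, again without the 10 genes. The first, led by Klra17, Ccl8, Pf4 and Vcam1, made up 14.3%, 17.6% and 28.8% of the class at 4, 12 and 20 months. Its Mrc1 level was 57.8, 79.3 and 94.1 CPM and its Selenop level 537, 714 and 740.2 CPM, both the highest of the 4 larger sub-clusters in every library. Mertk (34.1, 45.4 and 41.4 CPM), Stab1 (41.7, 58.9 and 58.8 CPM) and Folr2 (10.9, 10.2 and 15.7 CPM) were also highest there, although for Mertk and Stab1 at 4 months and Folr2 at 4 and 12 months the interval overlapped that of another sub-cluster. Msr1 was lowest there, at 138, 125 and 124 CPM, with overlap at 12 months.

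The second sub-cluster, led by Chil3, Fn1 and Ccr2, was the largest, with 39.9%, 38.6% and 41.7% of cells, and had Mrc1 at 16.8, 20.9 and 23.6 CPM and Selenop at 186, 252 and 320.3 CPM. The third, led by the immediate-early and inflammatory genes Cxcl2, Atf3 and Il1b, held 27.7%, 35.4% and 17.3% of cells. There the age difference was largest, with Mrc1 at 9.10, 24.9 and 33.6 CPM, Mertk at 8.95, 19.3 and 19.6 CPM and Selenop at 164, 319 and 379 CPM. The fourth, led by the interferon-response genes Ifit1bl1, Rsad2 and Cxcl10, had the most Axl of the 4 larger sub-clusters, at 272, 309 and 316 CPM, and the least Mrc1 of these 4, at 6.94, 7.75 and 9.63 CPM. Selenop was higher at 20 than at 4 months in each of the 4, by 0.46 to 1.21 on the log2 scale, and Mrc1 by 0.47 to 1.88, although the interval of Mrc1 in the interferon-led sub-cluster (-0.29 to 1.24) included 0.

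**Figure D3:**
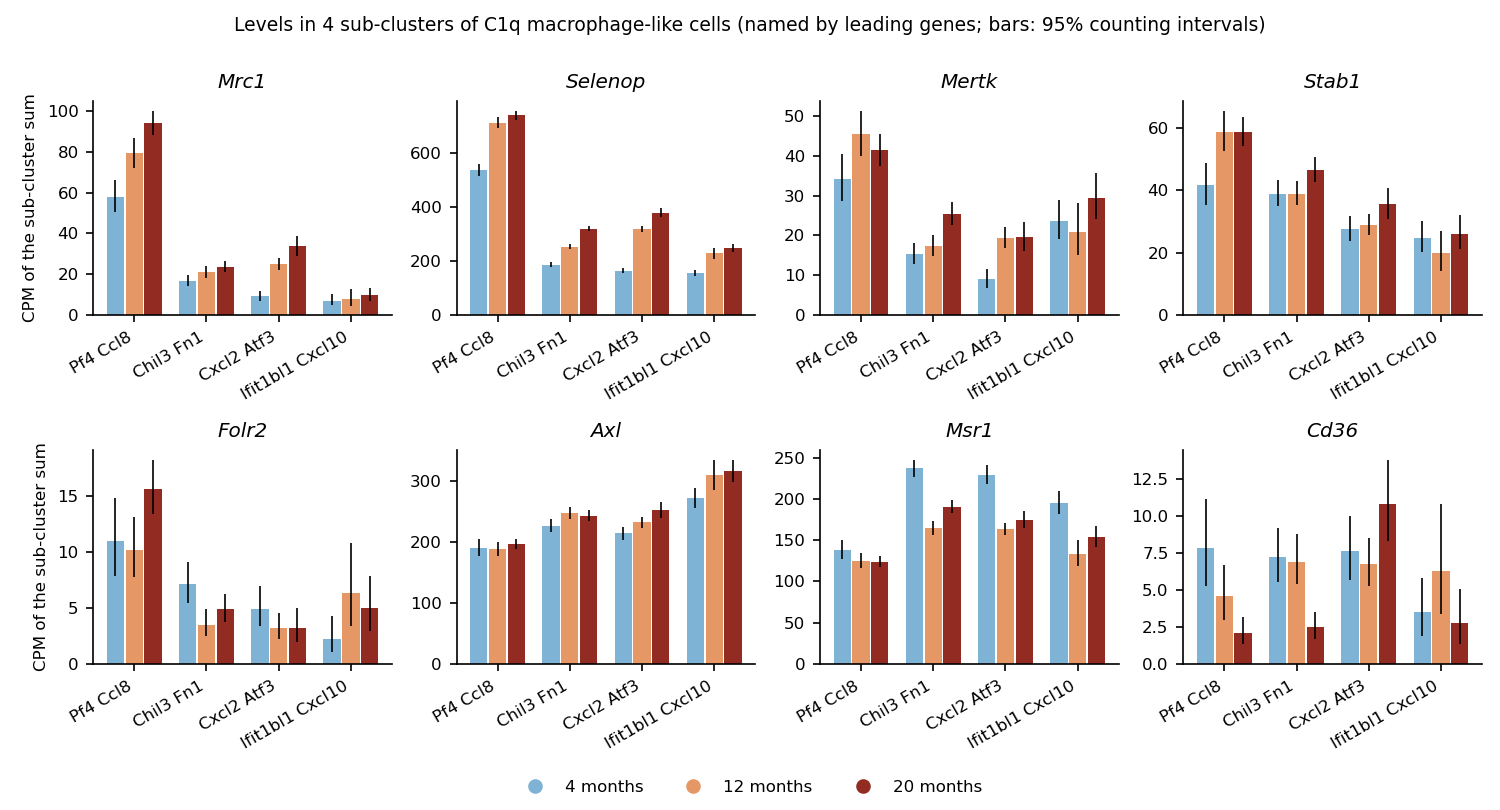
Bars give the level of 8 genes (vertical axis, CPM of the sub-cluster sum, starting at 0) in the 4 larger sub-clusters of C1q macrophage-like cells, named by leading genes, at each age; error bars are 95% counting intervals. The sub-cluster led by Pf4 and Ccl8 stands highest for Mrc1, Selenop, Mertk, Stab1 and Folr2 at each age and lowest for Msr1, and the interferon-led one stands highest for Axl.

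Both the mix of sub-clusters and the level within them differed between ages. Weighting the levels by the 4-month mix gave Mrc1 a log2 ratio of 0.86 and Selenop 0.77 at 20 months, and Mertk 0.58, under the threshold. With that mix no gene was past 1.5-fold at 12 months, where Mrc1 was at 0.58 and Selenop at 0.57, just under the threshold of 0.585.

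Cd36 encodes a receptor for oxidised lipoproteins and long-chain fatty acids and lies on chromosome 5 from 17781690 to 17888801. In C1q macrophage-like cells it was at 12.1 (10.7 to 13.5), 7.73 (6.74 to 8.82) and 3.92 (3.26 to 4.66) CPM, a difference of -0.64 (-0.90 to -0.38) at 12 months and -1.62 (-1.94 to -1.32) at 20 months on the log2 scale. Few cells held a large part of these counts. The fifth sub-cluster, led by Mmp12, Cd36 and Lpl, counted 17 cells in all (10, 5 and 2 by age) and held 125 of the 284 Cd36 counts of the class at 4 months, 40 of 219 at 12 months and 0 of 126 at 20 months. Without these 17 cells, an alternative added after seeing the data, the ratio was -0.10 at 12 months and -0.79 at 20 months. Within the first and second sub-clusters Cd36 was also lower at 20 months, by -1.90 (-2.76 to -1.05) and -1.54 (-2.22 to -0.90). The fourth was at -0.34 (-1.67 to 0.94). In the third sub-cluster Cd36 was at 7.61, 6.73 and 10.8 CPM, but 1 cell held 35 of its 64 counts at 20 months, and without that cell the level was 4.90 CPM. The 40 counts of the fifth sub-cluster at 12 months were all in 1 cell.

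In monocyte-like cells Cd36 was at 19.1, 10.7 and 10.8 CPM, with the highest level in a small sub-cluster led by Ear1, Eno3 and Ace, genes of non-classical monocytes. Its 106, 44 and 52 cells had 304, 170 and 143 CPM of Cd36, a difference of -1.09 (-1.57 to -0.63) at 20 months on the log2 scale, and supplied 187 of the 374 monocyte counts at 4 months, 53 of 133 at 12 months and 50 of 146 at 20 months. Without the cluster led by S100a8 and S100a9, the ratio of Cd36 in monocyte-like cells at 20 months was -0.21 (-0.61 to 0.18), no longer past 1.5-fold. Its removal took the 4-month level from 19.1 to 9.86 CPM. The 25-cell sub-cluster led by S100a9 and Ngp held only 0, 2 and 0 Cd36 counts. The Cd36 counts removed with the cluster at 4 months thus lay in other monocyte-like cells, and which these were was not determined. Without only the 25-cell sub-cluster led by S100a9 and Ngp the ratio was -0.82 (-1.10 to -0.54). It was -0.99 without a sub-cluster led by Cxcl9 and C1qa, and -0.91 without the cell with most Cd36 counts in each library. In dendritic cell-like cells the order of ages was the opposite, at 9.60, 12.6 and 18.2 CPM. There the counts came largely from the sub-cluster led by Xcr1, the chemokine receptor of cross-presenting type 1 dendritic cells, with 39 of 59 counts at 4 months and 113 of 119 at 20 months. Its share of dendritic cell-like cells was 12.7%, 15.1% and 21.8%, and its own Cd36 level was 41.9 (29.8 to 57.3), 60.0 (46.5 to 76.3) and 72.9 (60.1 to 87.7) CPM.

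The other age differences in these classes were as follows. Among monocyte-like cells 7 of the 10 genes passed the minimum. At 20 months 2 were higher, Mrc1 by 1.02 (0.70 to 1.35) and Mertk by 0.77 (0.44 to 1.11), beside 3.2% of all genes, and Cd36 was lower, beside 1.55%. At 12 months none was higher, beside 4.48%, and Cd36 was lower, at -0.84, beside 1.36%. Markers of other cells moved with these differences: 10 neutrophil markers, none at 0, summed to 222, 935 and 906 CPM in monocyte-like cells, and C1qa was at 381, 496 and 754 CPM. Without the cluster led by S100a8 and S100a9 the ratio was 1.18 for Mrc1 and 0.82 for Mertk. A monocyte sub-cluster led by Cxcl9 and C1qa made up 12.0%, 20.9% and 22.2% of the class. Its summed C1q level of 3627 CPM passes the limit of 5 times the lymphocyte-like level, which was applied to whole clusters, so these cells would count as C1q macrophage-like if sub-clusters were judged alone, and the 17-cell macrophage sub-cluster (1187 CPM) would not. Without the Cxcl9 and C1qa sub-cluster the ratio was 0.94 (0.56 to 1.32) for Mrc1 and 0.57 (0.16 to 0.97) for Mertk, the latter short of 1.5-fold. Mrc1 was at 8.74, 12.3 and 18.3 CPM in that sub-cluster. In the sub-cluster led by AA467197 and Ifit1bl1 it was at 6.49, 5.62 and 22.0 CPM, but 1 cell held 35 of its 75 counts at 20 months, and the level was 11.8 CPM without that cell. Without the cell with most Mrc1 counts in each library, the ratio over the class was 0.86. Among dendritic cell-like cells 6 genes passed. At 20 months Mrc1 and Cd36 were higher, beside 5.27%, and Stab1 was lower, beside 3.21%. At 12 months Mrc1 was higher, beside 5.42%, and Stab1 lower, beside 2.74%. These rest on 26, 49 and 53 counts of Mrc1 and, for Stab1, on levels that were 1.77 (1.27 to 2.42) times the lymphocyte-like one at 4 months and 0.970 and 0.727 times at the later ages. In lymphocyte-like cells 4 genes passed and none was past 1.5-fold, beside 2.64% of genes higher and 0.981% lower at 12 months and 2.54% and 1.55% at 20 months.

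The share of cells with at least 1 count was compared after thinning each cell to 3000 counts, which left out no cell. In C1q macrophage-like cells a count of Selenop was found in 37.9% (36.0 to 39.7), 49.5% (47.6 to 51.4) and 59.2% (57.6 to 60.9) of cells, against 61.2%, 75.6% and 82.1% before thinning. The lymphocyte-like shares were 11.7%, 13.3% and 13.8%. For Mrc1 the thinned shares were 4.75%, 6.85% and 9.32%, beside 0.461%, 0.649% and 1.08% in lymphocyte-like cells. Mertk was found in 4.97%, 5.74% and 7.51% of C1q macrophage-like cells and Stab1 in 9.02%, 9.47% and 12.6%. The shares of Axl were 50.9%, 47.5% and 47.3%, those of Msr1 41.8%, 34.2% and 34.9%, and those of Cd36 1.93%, 1.47% and 0.938%. Between 4 and 20 months the intervals were apart and higher for 4 genes (Mrc1, Stab1, Mertk and Selenop) and apart and lower for 3 (Msr1, Cd36 and Axl). The share of all genes with intervals apart was not computed, so these counts have no background. The share of Axl thus went against its CPM, and no order of ages is read from it. The median depth of C1q macrophage-like cells was 8254, 9087 and 8241 counts and that of lymphocyte-like cells 5846, 6578 and 6090.5.

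The lymphocyte-like level, used as background throughout, was not uniform for Selenop. In 185 cells led by Trgc1, Il17a and Trdc, genes of interleukin-17-producing gamma-delta T cells, Selenop stood at 711 (627 to 804), 757 (675 to 847) and 636 (559.6 to 719) CPM, beside 545, 692 and 736 CPM in the Pf4-led macrophage cluster. Its level did not follow age. Cd163l1, a relative of Cd163 known from gamma-delta T cells, was among the genes leading this cluster. The C1q level of that cluster was 435 CPM, beside 425 CPM over all lymphocyte-like cells. A cluster of 1851 cells led by Tnfrsf4, Ikzf2 and Foxp3, genes of regulatory T cells, had 120.2, 113 and 108 CPM of Selenop. The remaining lymphocyte-like clusters lay between 16.7 and 69.5 CPM in any library. Axl in the Il17a cluster was 27.8, 27.2 and 17.6 CPM, within the range of other lymphocytes.

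**Figure D4:**
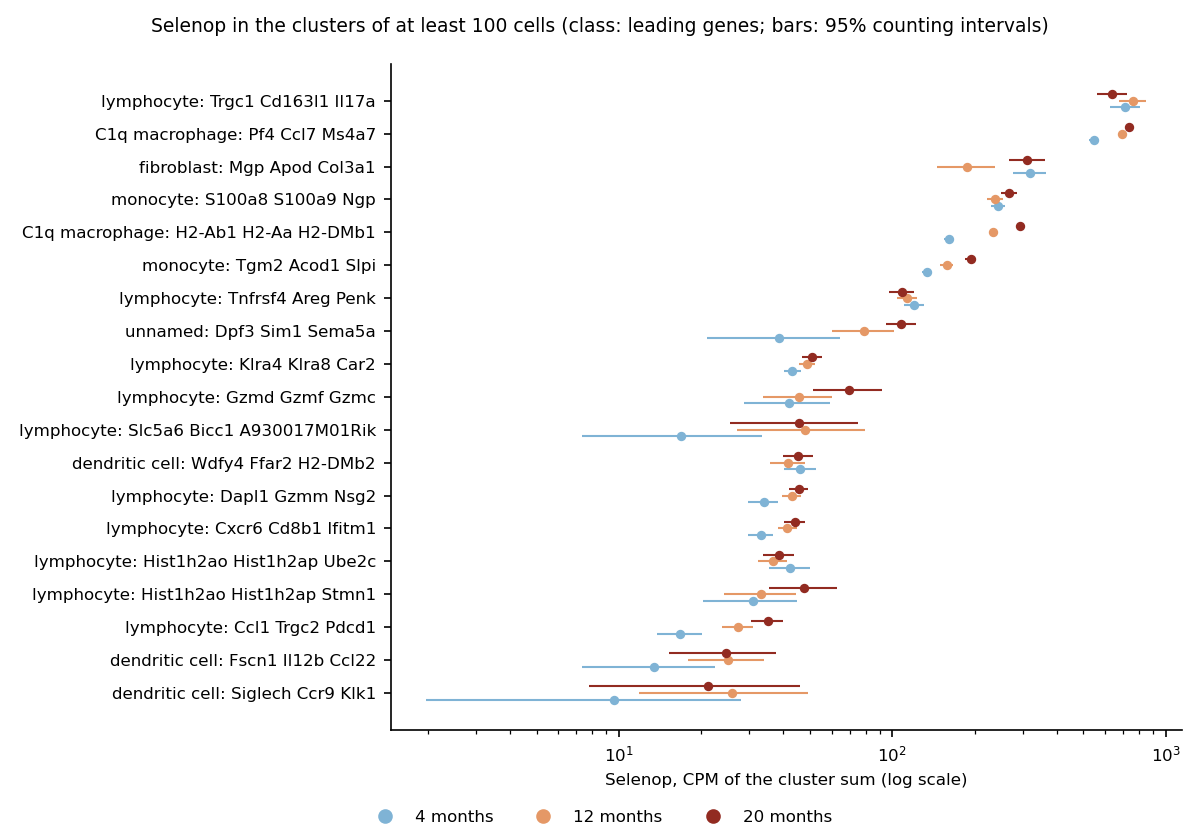
Each row is a cluster of at least 100 cells, labelled by class and 3 leading genes, and the horizontal axis is its Selenop level (CPM of the cluster sum, log scale) at each age, with 95% counting intervals. The Il17a and Trgc1 cluster lies between 636 and 757 CPM, at the level of the Pf4-led macrophages, and the other lymphocyte clusters lie at 16.7 to 120.2 CPM.

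Mrc1, Selenop and Mertk, the 3 genes that were higher at 20 months in C1q macrophage-like cells, are shown with the sequence upstream of their starts, as members that moved together. Each window holds the 220 bases that end 31 bases before the RefSeq start on GRCm38.p6, read 5′ to 3′ on the plus strand, with matches to GAGGAA, the core recognised by the macrophage factor PU.1, in capitals on either strand. Sequences are from RefSeq. The Selenop window is that of the first of 3 starts listed and lies in an intron of a longer Selenop transcript. The window of the second start, not shown, overlaps it and holds the same GAGGAA match, and that of the third holds none.
Mrc1, chr2:14229164-14229383: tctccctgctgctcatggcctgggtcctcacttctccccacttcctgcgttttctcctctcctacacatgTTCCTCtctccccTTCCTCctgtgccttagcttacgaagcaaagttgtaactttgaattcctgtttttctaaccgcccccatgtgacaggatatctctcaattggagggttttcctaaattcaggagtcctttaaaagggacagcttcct
Selenop, chr15:3270517-3270736: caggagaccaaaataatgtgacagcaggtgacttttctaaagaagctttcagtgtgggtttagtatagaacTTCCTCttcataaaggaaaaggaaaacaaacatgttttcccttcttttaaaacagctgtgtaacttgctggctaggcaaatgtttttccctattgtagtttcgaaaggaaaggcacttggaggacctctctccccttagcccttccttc
Mertk, chr2:128698665-128698884: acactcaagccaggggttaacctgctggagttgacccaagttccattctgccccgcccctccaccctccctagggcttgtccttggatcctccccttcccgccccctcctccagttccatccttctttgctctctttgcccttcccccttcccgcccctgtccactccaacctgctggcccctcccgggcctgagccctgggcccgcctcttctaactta
The Mrc1 window held 2 matches and the Selenop window 1, both in the TTCCTC orientation, and the Mertk window none. GAGGAA or its complement occurs in 20.4% of the 32851 promoter windows of this length. TGCTGA, the core of the half-site bound by MAF proteins, was in none of the 3 windows and in 14.4% of all. Promoters were on hand for 8 of the 10 genes, all but Msr1 and Lyve1.

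The wider pathways were read from 6 gene lists, which like the members were chosen with earlier results of these data known. Of all 10933 genes measured in C1q macrophage-like cells, 2.59% were higher at 20 months and 1.55% lower. Among resident macrophage genes and their transcription factors, 12 of 22 passed the minimum in C1q macrophage-like cells, and 5 were higher at 20 months and none lower, with a median log2 ratio of 0.37. These were Fcrls, an Fc receptor-like gene, at 5.82, 8.11 and 16.6 CPM, Maf at 126, 163 and 249 CPM, the complement gene C4b at 6.88, 8.36 and 12.7 CPM, Spic, a factor of iron-recycling macrophages, and the chemokine gene Ccl8, the smallest of the 5. Their log2 ratios were 1.51, 0.98, 0.89, 0.87 and 0.66. Maf was not particular to these cells, at 102, 88.3 and 100 CPM in lymphocyte-like cells, where Fcrls, C4b, Spic and Ccl8 were at 2.79 CPM or less. The other 10 genes of the list were below the minimum and did not share a direction. Cbr2, a carbonyl reductase gene, was at 5.35, 2.96 and 2.49 CPM, with a log2 ratio of -1.11 (-1.53 to -0.69) at 20 months, and Slc40a1, the iron exporter gene, was at 0.680, 0.882 and 0.311 CPM. Timd4, a phosphatidylserine receptor of resident macrophages, was at 0.552, 0.670 and 0.404 CPM.

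Of other scavenger receptors and endocytic lectins, 12 of 24 passed, with none higher and 1 lower at 20 months and a median of -0.05. The lower one was Mgl2, a galactose-type lectin, at 17.03, 20.8 and 9.23 CPM, a difference of -0.88. Of the TAM ligands and genes for engulfing dying cells, 12 of 21 passed, 1 was higher and none lower, with a median of 0.10. The higher one was Abca1, a cholesterol exporter that also stands on the lipid list, at 14.3, 17.6 and 24.4 CPM. The ligand genes were low: Pros1 was at 8.15, 9.28 and 9.76 CPM, and Gas6, singled out after its values were seen, was under the minimum at 2.59, 4.44 and 6.12 CPM.

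Around Selenop, 16 of 19 genes of selenium supply and selenoproteins passed the minimum. None was past 1.5-fold at 20 months, and their median was -0.10. Gpx1, the cytosolic glutathione peroxidase, was at 2022, 1689 and 1622 CPM, and Gpx4, which reduces lipid peroxides, at 99.1, 115 and 119 CPM. Of the folate genes 5 of 7 passed and none was past 1.5-fold at 20 months, with a median of 0.01. Of the lipid genes beside Cd36, 12 of 14 passed, with Abca1 higher, Lpl lower and a median of -0.12. Lpl, which encodes lipoprotein lipase, was at 18.6, 21.1 and 11.03 CPM. At 12 months 2 genes of the resident list and 1 of the folate list were higher, beside 3.48% of all genes. None of any list was lower, beside 1.27%.

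**Figure D5:**
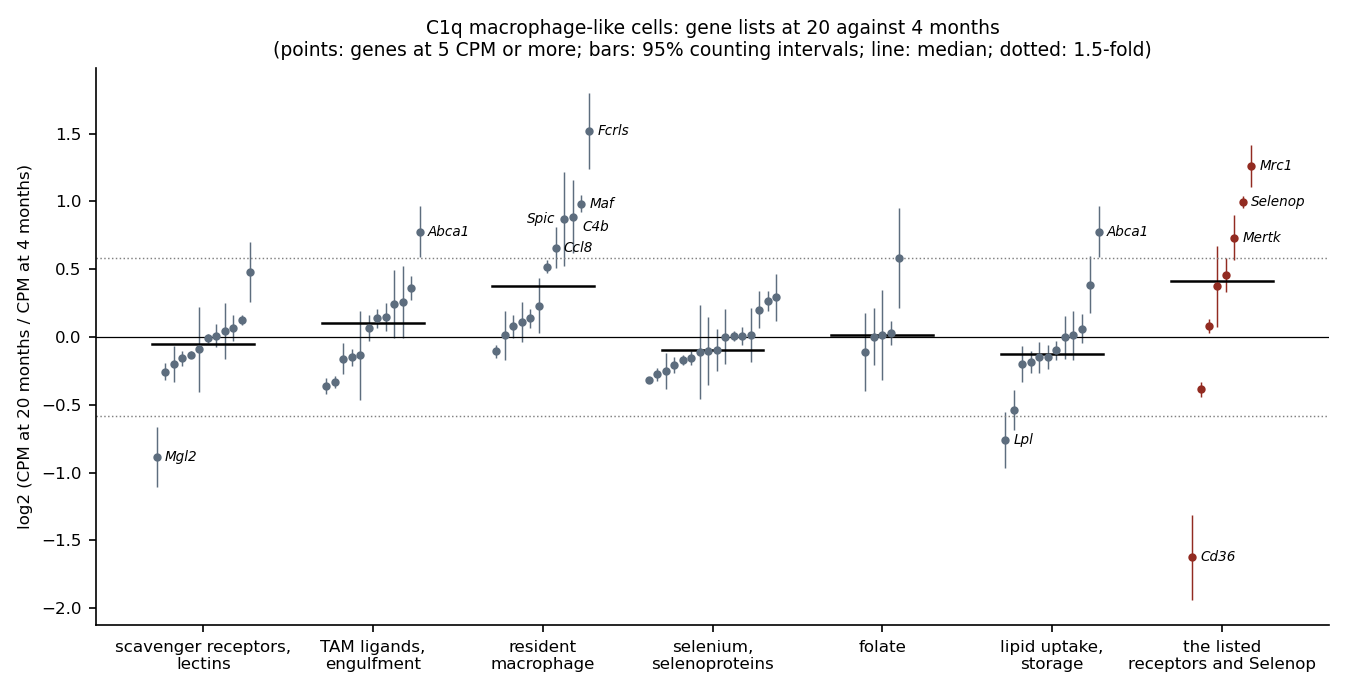
Points are the genes of each list that averaged at least 5 CPM in C1q macrophage-like cells, the vertical axis is the log2 ratio of 20 to 4 months with 95% counting intervals, black lines are medians, and dotted lines mark 1.5-fold. The resident macrophage list has 5 genes above the upper line and a median of 0.37, and the selenoprotein list has none past either line. Of all genes measured, 2.59% were higher and 1.55% lower.

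The genes most like each member were found by Pearson correlation of log2(CPM + 10) over the 13 sums of a named class and library with at least 50 cells, as a description without a test, since these sums share libraries and cell classes. Mrc1 was followed most closely by Itga9 (0.961), Pf4 (0.953) and C1qc (0.948), and Selenop by Itgb5 (0.970), Ly6e (0.970) and Cpd (0.968). Pf4 and C1qc were among the markers that named the classes, so their closeness to Mrc1 is no separate finding. Axl was closest to the lysosomal genes Grn (0.993) and Hexa (0.988) and to Rab14 (0.984). Msr1 was closest to Prdx5 (0.995), Trem3 (0.993) and Gm5150 (0.992), Stab1 to Slc11a1 (0.988), Mgat5 (0.985) and Klra2 (0.983), and those closest to Mertk included Ptgs1 (0.985) and Bad (0.976). For Folr2 the 3 genes were Prxl2b (0.967), Clec4b1 (0.966) and Tlr1 (0.957), and for Cd36 Gm14548 (0.946), Snap29 (0.941) and Ahcyl2 (0.940). Cd163 and Lyve1 were too sparse for such a comparison to be read.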

How the data were processed

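Live CD45.2-positive tumour cells of 3 ages were profiled in 1 library each. The deposited files hold raw counts per gene and cell, which the authors made with STAR 2.7.10a on GRCm38 per the submitters' processing notes; whether molecules or reads were counted, the use of strand and cell calling are not given in the sources used here. Of the listed gene identifiers, 98.1% occur in GENCODE M21, from which positions were taken.

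A cell was kept if it had 500 or more counts and no more than 15% of them mitochondrial, and the 6% with the highest Scrublet score were removed per library. Counts were scaled to 10000 per cell and log-transformed, and 2000 variable genes, 30 principal components, 15 neighbours and Leiden resolution 1.0 (0.5 for sub-clusters) gave the clusters (scanpy 1.11.5). Clusters were named from marker lists, with a scoring rule set after the clusters had been seen, so differences from the study's own cell types may come from these rebuilt names. The monocyte class includes a cluster whose leading genes include neutrophil genes (S100a8, Ngp, Camp). 271 cells stayed unnamed.

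Counts were summed per class and library. Levels carry exact Poisson intervals, and shares and ratios of 2 sums carry Clopper-Pearson intervals. With 1 library per age no test was made. Named genes were the 10 members, up to 4 genes per list by size among those past 1.5-fold and the 3 most similar genes per member, of which 1 is not reported here. Ccl8, Gas6, Pros1, Timd4, Cbr2, Slc40a1, Gpx1 and Gpx4 fall outside that rule and were chosen after their values were seen. The members and lists were chosen with earlier results of these data known. The ratio and its interval were run on simulated Poisson counts. These follow the model of the interval itself, so they do not check it for counts gathered in few cells. Alternatives to clustering, filtering, scaling and background are given in the closing section; 3 of these, and 4 alternatives for monocyte-like cells, were added after seeing the data, as were values without a single cell.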

Additional observations from a re-analysis of the deposited data

Results flagged for a closer look

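For 3 of the followed genes the 20-month library lay on opposite sides of the 4-month library in different cell classes. Their counting intervals excluded 0 on both sides. A shift as small as 0.0811 on the log2 scale, that of Axl in C1q macrophage-like cells, met this rule. How common such opposite signs are among all genes was not computed. Cd36 was higher in dendritic cell-like cells, at 0.925 on the log2 scale, and lower in C1q macrophage-like cells, at -1.62, and in monocyte-like cells, at -0.819. Without the 17-cell sub-cluster the macrophage ratio was -0.79, and without the cluster led by S100a8 and S100a9 the monocyte ratio was -0.21. The latter removal also took monocyte-like cells outside the small sub-cluster led by S100a9 and Ngp. The other alternatives for monocyte-like cells gave -0.82, -0.91 and -0.99. Stab1 was higher in C1q macrophage-like cells, at 0.458, and in monocyte-like cells, at 0.44, and lower in dendritic cell-like cells, at -0.844, where its level at 12 and 20 months was near that of lymphocyte-like cells. Axl was higher by 0.0811 in C1q macrophage-like cells and 0.239 in monocyte-like cells and lower in dendritic cell-like cells, at -0.322. The macrophage direction of Axl did not hold throughout: the thinned share of cells with a count was 50.9% at 4 months and 47.3% at 20 months, and 1 of 15 alternatives gave -0.02. With 1 library per age these differences between classes were not tested.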

How the results depend on the processing

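The count of genes past 1.5-fold in C1q macrophage-like cells was computed under 15 alternatives, 3 of them added after seeing the data. At 20 months it was 4 and ranged from 3 to 5. At 12 months it was 3, ranged from 0 to 3, and was 0 with the 4-month mix of sub-clusters. Mrc1 (0.86 to 1.43) and Selenop (0.77 to 1.15) stayed past 1.5-fold at 20 months in all 15 alternatives, and Cd36 (-1.88 to -0.79) did too, although without the 10 cells with most Cd36 its level was below the minimum of 5 CPM and it was not counted. At 12 months Cd36 (-0.83 to -0.10) was past 1.5-fold in 9 of 15. Mertk (0.54 to 0.91) stayed past it in 13 of 15, falling short with the mean over cells and with the 4-month mix. Folr2 at 20 months ranged from -0.02 with the 4-month mix to 0.85 without the 10 cells with most counts, and Axl from -0.02 to 0.21. No paired analysis was possible because each age has 1 library, and for the same reason no library could be left out. The number of the 10 genes that were highest in C1q macrophage-like cells in every library was 5, and 4 to 5 under 7 alternatives. It has no background over all genes, and the highest class of Msr1, Stab1 and Cd36 was not followed through these alternatives. The percentage of all genes past 1.5-fold at 12 and 20 months was 4.76 and 4.13, against 41.6 and 38.6 with no minimum level and 2.05 and 1.79 with a minimum of 50 CPM. With cells thinned to 1000 counts, the shares of cells with a count were apart at 20 and 4 months for 5 genes in place of 7, without a background over all genes. Depth limits Cd163, Lyve1, Folr2 and Cd36, and counting intervals do not cover differences between mice.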
